A study of Mus musculus with 64 samples.

Results

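The genes described here are 34 mouse genes of fatty acid oxidation and of the response to PPAR alpha, chosen by gene symbol out of 25107 symbols listed in the liver, heart, white fat and lung tables of the series. They comprise the receptor gene Ppara itself, genes that activate fatty acids and carry them into mitochondria, the mitochondrial and peroxisomal enzymes of beta-oxidation, acyl-CoA thioesterases, and a few well-known target genes of the receptor. Of the 34 genes, 33 were listed in liver (all but Ucp3), 32 in heart (all but Cyp4a10 and Cyp4a14), 34 in fat and 31 in lung (all but Cyp4a10, Cyp4a14 and Acot3). After the filter on low values, 32 were tested in liver, where Cpt1b was under it, 29 in heart, where Acaa1b, Acot3 and Vnn1 were under it, 32 in fat, where Cyp4a10 and Cyp4a14 were under it, and 31 in lung.

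Mice were trained on a treadmill every day for 6 weeks or kept sedentary, and tissue was taken 48 h after the last bout. RNA was sequenced in 64 libraries, of which the liver gave 20, the heart 20, the inguinal white fat depot 12 and the lung 12. Each tissue had 4 groups: trained mice with a knockout of the clock gene Bmal1 in skeletal muscle (labelled iMSBmal1KO), sedentary knockout mice, trained vehicle mice and sedentary vehicle mice, where a group had 5 libraries of liver, 5 of heart, 3 of fat and 3 of lung. All 4 groups carry the genotype Cre+:iMSBmal1 fl/fl, that is a Cre gene and 2 alleles of Bmal1 that Cre can delete, and the vehicle mice received vehicle. A comparison of knockout with vehicle mice therefore contrasts both the loss of the gene and the treatment that brings it about, which cannot be told apart. The agent, the promoter that drives Cre and the age of the mice are not given in the sources used here. Nothing in the labels says whether same-group replicates came from different animals, so the p-values measure only the spread between these samples, which may be technical.

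Peroxisome proliferator-activated receptor alpha (PPAR alpha) is a nuclear receptor that binds fatty acids, pairs with the retinoid X receptor and switches on genes for burning fat. It is best known in liver, where it drives the response to fasting, and is also active in heart, which runs mainly on fatty acids. Long-chain fatty acids are first joined to coenzyme A, are moved into mitochondria on carnitine, and are then shortened step by step by chain-length-specific dehydrogenases, hydratases and thiolases, with electrons passed on through the electron-transferring flavoprotein.

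Depth was about 12391248 to 20668756 reads a library in liver and 14141592 to 20961870 in heart, both estimated from the smallest steps in the values. The summed counts of a library were 18966582 to 31169145 in fat and 18668236 to 35690215 in lung. The genes under the filter on low values, a mean of 1 CPM in liver and heart, ranged over all libraries from 0.0146 to 2.93 CPM for Cpt1b in liver and, in heart, from 0 to 1.18 for Acaa1b, 0.457 to 1.33 for Acot3 and 0 to 0.486 for Vnn1. The knockout was made in skeletal muscle, which is not analysed here. The targeted gene, listed as Arntl, was low in all 4 tissues, with group means of 0.777 to 2.48 CPM in liver, 0.646 to 0.896 in heart, 1.58 to 2.43 in fat and 1.82 to 3.24 in lung. In liver it was lower in trained knockout mice than in trained vehicle mice (log2 fold change -0.96, SE 0.23, adjusted p = 0.034, limma). Each tissue expressed its own markers, with 11 of 11 hepatocyte markers in liver, 8 of 8 cardiomyocyte markers in heart, 7 of 7 adipocyte markers in fat and 6 of 6 lung epithelium markers in lung at a median of 5 CPM or more. Of the libraries, 1 in liver, 4 in heart, 3 in fat and 1 in lung held markers of another tissue at over 5 times the median library. The liver library was replicate 2 of the trained knockout group, with skeletal muscle markers. In heart they were trained knockout 5, trained vehicle 1 and sedentary vehicle 3, with adipocyte markers, and trained vehicle 5, with hepatocyte markers. Trained knockout 5 and sedentary vehicle 3 of heart also held brown adipocyte markers, at 56.7 and 55.1 CPM, against 1.80 CPM in the median library. In fat they were trained knockout 2, sedentary knockout 1 and sedentary vehicle 1, with hepatocyte markers, and in lung trained knockout 3, with brown adipocyte markers.

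The genes are expressed at very different levels in the 4 tissues, and the tables were normalised separately, so levels across tissues are approximate. Levels are given per kb of the longest listed transcript, on the CPM scale, in which counts are set against the total of the library, and as means over all libraries of a tissue. In heart the highest were Acadm, the medium-chain acyl-CoA dehydrogenase, at 484 CPM per kb, Etfb, a subunit of the electron-transferring flavoprotein, at 478, and Acaa2, the last enzyme of the mitochondrial cycle, at 471. In liver the peroxisomal thiolase gene Acaa1b led at 794 CPM per kb, followed by Acaa2 at 655 and Etfb at 353. In fat Acsl1, which joins long-chain fatty acids to coenzyme A, led at 387 CPM per kb, and in lung Etfb, at 82.5. Acaa1b and its near-identical copy Acaa1a may share reads, as may Acot1 to Acot4 and the pair Cyp4a10 and Cyp4a14, so values of these genes are uncertain in that respect.

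The 2 genes for carnitine palmitoyltransferase 1, the gate of fatty acids into mitochondria, differed in level between tissues. The muscle form Cpt1b had 177 CPM per kb in heart and 0.346 in liver, and the liver form Cpt1a had 8.68 in heart and 78.8 in liver. In fat Cpt1a had 35.3 CPM per kb and Cpt1b 0.941, and in lung they had 27.4 and 3.35. Cyp4a10 and Cyp4a14, which oxidise the far end of fatty acids, stood at 59.8 and 61.7 CPM per kb in liver. In fat they were at 0 in 5 and 6 of the 12 libraries, and their highest values, 0 to 3.13 CPM over all libraries for Cyp4a14 and 0 to 1.46 for Cyp4a10, were in sedentary knockout 1, which held hepatocyte markers. Trained knockout 2 of fat held more of these markers (1251 CPM, against 156.7 CPM in sedentary knockout 1) and was not the highest for either gene. Whether the Cyp4a10 and Cyp4a14 transcripts in fat came with liver tissue was not tested. Ppara was among the lower genes of the set in every tissue, at 10.3 CPM per kb in liver, 3.92 in heart, 3.09 in fat and 1.93 in lung.

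**Figure D1:**
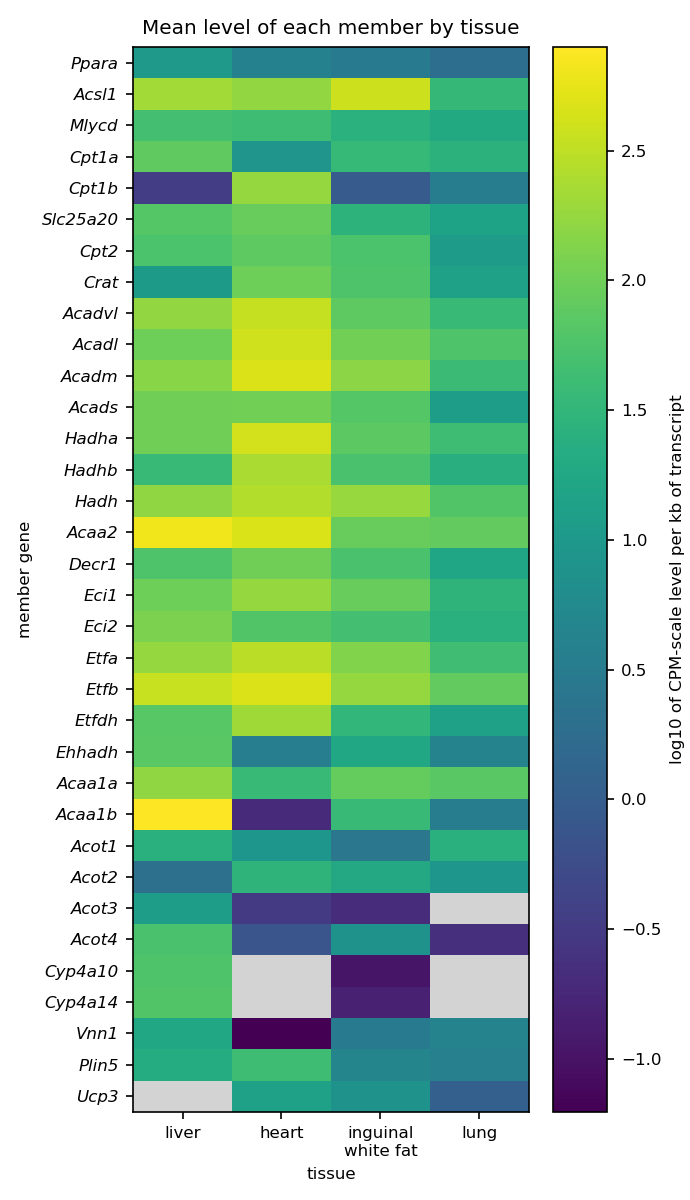
Mean level of each of the 34 genes over all libraries of a tissue, as log10 of the CPM-scale level per kb of the longest listed transcript; rows are genes in the order of the pathway, columns tissues, and grey marks a gene that a table does not list. Heart holds high levels of most mitochondrial enzymes, Acaa1b is high in liver, and Cpt1b is high only in the heart column.

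Promoters of 27 of the 34 genes were found in the RefSeq table of mouse promoters (build GRCm38.p6), 30 promoters in all, each from 250 bases before to 50 bases after the start. PPAR alpha with its partner binds a direct repeat of the half-site AGGTCA with 1 base between. The full repeat, searched on both strands, was found in 0 of the 30 promoters and in 13 of all 32851 promoters (0.0396%). A half-site was found on either strand in 9 of the 30 promoters (30%) and in 5340 of all 32851 (16.3%). The 9 include 2 windows each of Acot3 and Plin5, and those of Acot3 overlap and hold the same site. In both sets some genes have more than 1 window (30 windows of 27 genes, 32851 of 27025), so these are not shares of genes. A match is a description of the letters in a short window, not a binding site, and a window without one says nothing of sites elsewhere. Shown are the promoters of Ppara, Etfb and Acaa1b, 3 of the 4 genes that passed the test in a comparison, those of Acot4 and Acadvl, both with small p-values and a half-site, and that of Hadhb, the gene with the smallest p for the knockout in trained heart. Capitals mark a half-site on either strand.
Ppara: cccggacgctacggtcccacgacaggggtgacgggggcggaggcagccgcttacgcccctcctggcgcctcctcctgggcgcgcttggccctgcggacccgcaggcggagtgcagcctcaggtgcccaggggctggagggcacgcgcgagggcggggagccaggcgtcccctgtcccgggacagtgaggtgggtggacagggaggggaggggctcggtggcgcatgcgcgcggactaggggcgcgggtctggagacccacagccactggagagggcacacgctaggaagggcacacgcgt
Etfb: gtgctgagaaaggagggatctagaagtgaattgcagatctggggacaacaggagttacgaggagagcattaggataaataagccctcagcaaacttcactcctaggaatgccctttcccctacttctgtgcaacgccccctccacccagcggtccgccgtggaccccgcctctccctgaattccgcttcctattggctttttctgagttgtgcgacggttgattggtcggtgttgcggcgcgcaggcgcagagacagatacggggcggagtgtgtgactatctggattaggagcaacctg
Acaa1b: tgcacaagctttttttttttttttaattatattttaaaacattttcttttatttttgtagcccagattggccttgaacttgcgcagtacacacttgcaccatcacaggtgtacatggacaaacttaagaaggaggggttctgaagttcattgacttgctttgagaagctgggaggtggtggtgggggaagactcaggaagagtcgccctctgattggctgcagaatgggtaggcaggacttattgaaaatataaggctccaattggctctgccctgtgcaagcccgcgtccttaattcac
Acot4: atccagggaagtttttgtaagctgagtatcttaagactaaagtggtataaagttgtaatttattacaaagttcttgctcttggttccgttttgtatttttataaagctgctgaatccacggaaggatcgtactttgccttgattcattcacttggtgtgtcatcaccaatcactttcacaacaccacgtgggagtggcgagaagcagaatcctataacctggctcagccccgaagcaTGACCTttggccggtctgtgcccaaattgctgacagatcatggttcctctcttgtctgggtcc
Acadvl: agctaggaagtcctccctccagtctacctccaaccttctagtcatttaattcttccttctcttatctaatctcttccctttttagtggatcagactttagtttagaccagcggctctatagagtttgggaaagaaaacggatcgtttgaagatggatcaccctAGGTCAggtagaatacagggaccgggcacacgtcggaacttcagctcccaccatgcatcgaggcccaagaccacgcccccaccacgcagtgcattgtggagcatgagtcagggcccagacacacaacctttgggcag
Hadhb: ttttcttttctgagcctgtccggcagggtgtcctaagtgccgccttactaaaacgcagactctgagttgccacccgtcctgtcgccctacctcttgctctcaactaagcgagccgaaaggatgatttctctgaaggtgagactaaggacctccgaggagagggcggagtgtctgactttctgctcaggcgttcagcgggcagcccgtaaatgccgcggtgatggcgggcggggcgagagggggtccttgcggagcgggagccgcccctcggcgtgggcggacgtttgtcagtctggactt
They lie at chr15:85735526-85735825 (plus strand), chr7:43443822-43444121 (plus), chr9:119157044-119157343 (minus), chr12:84038129-84038428 (plus), chr11:70015379-70015678 (minus) and chr5:30155003-30155302 (plus). The promoters of Ppara, Etfb, Acaa1b and Hadhb held no half-site, that of Acot4 held the reverse complement TGACCT, and that of Acadvl held AGGTCA. Hadha and Hadhb, the 2 subunits of the trifunctional protein, start back to back, and their windows share 228 bases. Windows of the following genes also held a half-site: Acadm, Cpt1a, Ucp3, Acot3 and Plin5.

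The design asks of each tissue whether training changes its transcripts and whether loss of Bmal1 in skeletal muscle changes that response. In heart, 1 of the 29 genes tested was lower and 1 higher with training in vehicle mice (limma, adjusted p under 0.05), against 3.55% of all genes called lower, 4.72% called higher and 8.27% in either direction. The gene that fell was Ppara. It had 21.9, 20.5, 24.4, 25.5 and 25.9 CPM in the trained vehicle libraries, against 37.8, 32.9, 32.3, 28.6 and 29.5 CPM in the sedentary vehicle libraries. Every trained library was below every sedentary one, with means of 23.6 ± 2.33 and 32.2 ± 3.60 CPM (SD, n = 5 each; log2 fold change -0.43, SE 0.082, adjusted p = 0.0046). In the knockout mice Ppara had 34.3, 28.8, 23.3, 29.8 and 27.7 CPM in trained libraries, against 31.4, 32.6, 32.7, 31.2 and 32.4 CPM in sedentary libraries. These groups overlapped (log2 fold change -0.16, SE 0.082, adjusted p = 0.46), and the training effect in knockout minus vehicle mice was 0.27 on the log2 scale (SE 0.12, adjusted p = 0.60), which did not pass.

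The gene that rose was Etfb. It had 537, 499, 444, 456 and 464 CPM in trained vehicle hearts, against 421, 430.3, 416, 424 and 439 CPM in sedentary vehicle hearts. The groups did not overlap, with means of 479.9 ± 37.8 and 426 ± 8.80 CPM (SD, n = 5 each; log2 fold change 0.17, SE 0.053, adjusted p = 0.047). Of the 29 genes, Acaa1a and Etfb were higher in every trained vehicle library and Ppara lower in every one, against 3.62% and 2.8% of all genes tested. The median log2 fold change of the 29 was 0.029, beside -0.0021 for all genes, with 19 above 0 and 10 below. An index of long against short transcripts moved with training, at 0.0857 to 0.274 in trained vehicle hearts and 0.369 to 0.427 in sedentary vehicle hearts. By its longest listed transcript, Ppara is the longest gene of the set, at 7445 bases, and Etfb the shortest, at 904 bases. The call of Etfb was lost without any 1 of the 5 sedentary vehicle libraries or without trained vehicle 1 or 2 (log2 fold change 0.13 to 0.18, adjusted p = 0.056 to 0.16), and kept without each of the other 3. With the index as a covariate the log2 fold change of Ppara was -0.26 (adjusted p = 0.85) and that of Etfb was -0.080 (adjusted p = 0.90), and 0 of all genes were called. The summed level of 5 red blood cell markers was 2255 to 3555 CPM in trained vehicle hearts and 1452 to 2013 CPM in sedentary vehicle hearts, and its part in the result was not tested. In bulk tissue fewer cells of a type and less RNA per cell cannot be told apart.

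Other genes of the pathway were counted from lists, beside 4.72% of all genes called higher and 3.55% called lower with training in vehicle hearts. Of 32 further beta-oxidation and acyl-CoA enzymes, 2 were called higher and 0 lower in trained vehicle hearts. They were Hsd17b10, a mitochondrial dehydrogenase (89.1 ± 6.91 CPM trained, 75.9 ± 6.57 sedentary, SD, n = 5 each; log2 fold change 0.23, SE 0.057, adjusted p = 0.016), and the thioesterase gene Acot13 (log2 fold change 0.16, SE 0.046, adjusted p = 0.034). Of 19 genes of fatty acid uptake and lipolysis, 3 rose and 1 fell. Gpihbp1, which holds lipoprotein lipase on the capillary wall, rose to 61.5 ± 5.44 CPM in trained hearts, against 49.4 ± 3.88 CPM in sedentary hearts (log2 fold change 0.31, SE 0.064, adjusted p = 0.0066). The fatty acid carrier Fabp4 rose (log2 fold change 0.35, SE 0.098, adjusted p = 0.029), as did the monoglyceride lipase gene Mgll (log2 fold change 0.17, SE 0.055, adjusted p = 0.048). The lipid droplet gene Plin4 fell (log2 fold change -0.35, SE 0.084, adjusted p = 0.014). Mgll and Plin4 are also the 1 that rose and the 1 that fell of 24 further PPAR alpha targets. Among the regulators and partners of the receptor, the clock repressor Nr1d1 rose (log2 fold change 0.37, SE 0.077, adjusted p = 0.0075) and the coactivator Med1 fell (log2 fold change -0.21, SE 0.054, adjusted p = 0.019). None of 10 ketone body and malonyl-CoA genes was called, with 1 at an unadjusted p under 0.05 (24.5% of all genes did). With the transcript length index as a covariate 0 of all genes were called in this comparison, so none of these list calls remained. Without libraries over 10 times the median in another tissue's markers, 521 of 13449 genes were called, against 1113 of 13456 with all libraries.

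**Figure D2:**
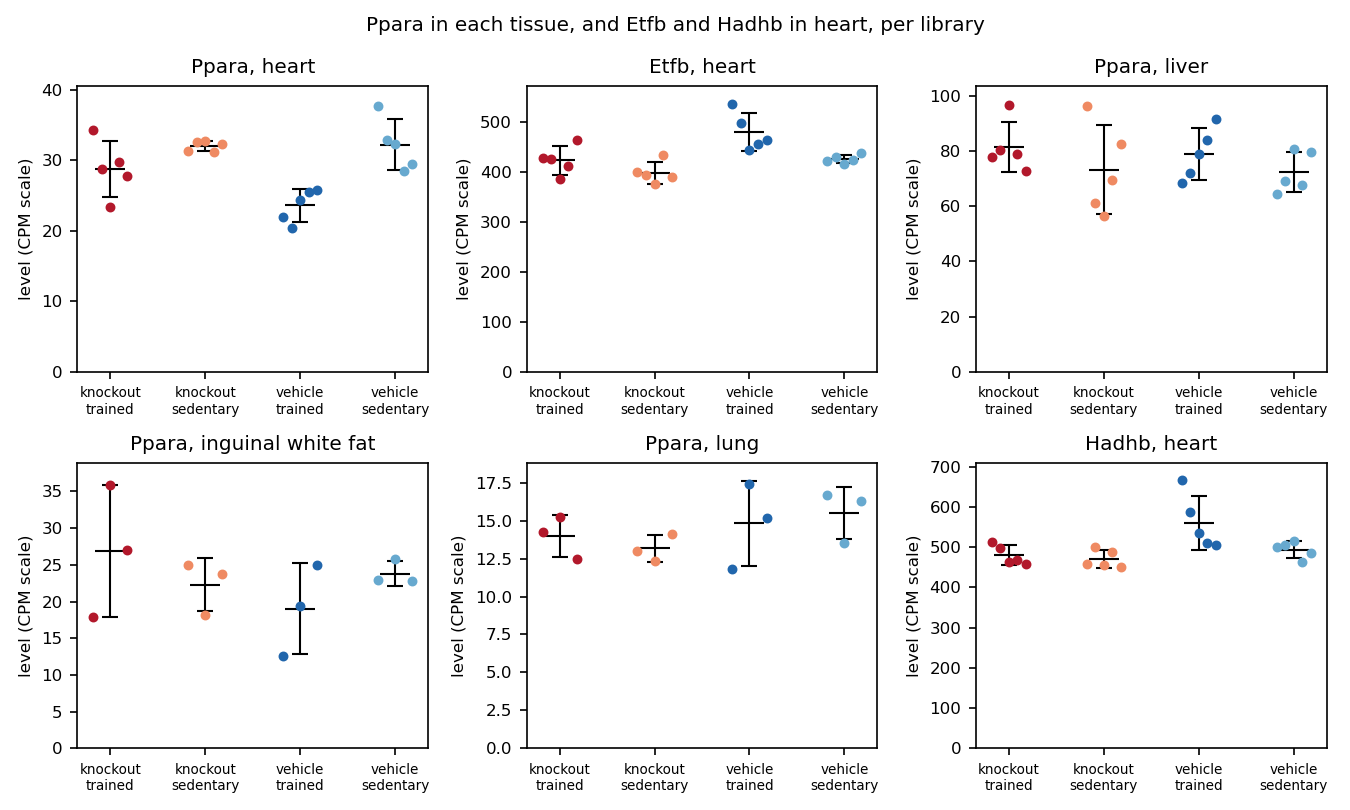
Level on the CPM scale in each library (points) with the group mean and SD (black), for Ppara in each tissue and for Etfb and Hadhb in heart; groups run from trained knockout to sedentary vehicle. In heart the 5 trained vehicle libraries of Ppara lie at 20.5 to 25.9, below all 5 sedentary vehicle libraries at 28.6 to 37.8.

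With the knockout, heart values of these genes were mostly lower by a little. None of the 29 was called in trained mice (0.52% of all genes were called) or in sedentary mice (0% were), by limma, and edgeR on estimated reads called 0 in both. In trained mice, 2 of the 29 were called lower without trained vehicle 5 and 1 without trained knockout 5. The shares of all genes called in these 2 fits are not given here, so the counts show only a dependence on single libraries. With all libraries, 10 of the 29 had an unadjusted p under 0.05 (15.1% of all genes did), 25 of the 29 fold changes were below 0 and their median was -0.098 on the log2 scale, beside -0.00031 for all genes. The smallest p belonged to Hadhb, for the beta subunit of the trifunctional protein, which had 513, 499, 463, 469 and 457 CPM in trained knockout hearts, against 666, 587, 534, 511 and 506 CPM in trained vehicle hearts (log2 fold change -0.22, SE 0.060, adjusted p = 0.085). These groups overlapped, and trained vehicle 1 and 2 stood highest. Etfb had 427, 427, 385, 412 and 465 CPM in trained knockout hearts (log2 fold change -0.18, SE 0.053, adjusted p = 0.11), and its groups overlapped through trained knockout 5. That library held adipocyte and brown adipocyte markers, whose part in these values was not tested. Decr1, needed for unsaturated fatty acids, had 297, 286, 264, 266 and 249.8 CPM in trained knockout hearts, against 344, 313, 301, 294 and 312 CPM in trained vehicle hearts (log2 fold change -0.20, SE 0.058, adjusted p = 0.11). Its groups overlapped through trained knockout 1. The transcript length index was 0.174 to 0.350 in trained knockout hearts, where 4 of the 5 libraries were above every trained vehicle library (0.0857 to 0.274). With the index as a covariate the log2 fold changes were -0.12 for Hadhb (adjusted p = 0.62), -0.048 for Etfb (adjusted p = 0.81) and -0.18 for Decr1 (adjusted p = 0.44), and 0 of all genes were called. Acot4 was lower in every trained knockout library, the only one of the 29 in either direction, against 1.8% of all genes. Of the lists, only the fatty acid carrier of muscle, Fabp3, was called. It fell to 1742 ± 144 CPM in trained knockout hearts, against 2172 ± 223 CPM in trained vehicle hearts (SD, n = 5 each; log2 fold change -0.32, SE 0.069, adjusted p = 0.038), and is 1 of 19 genes of uptake and lipolysis and 1 of 24 further PPAR alpha targets tested.

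In sedentary mice 6 of the 29 had an unadjusted p under 0.05 (6.54% of all genes did) and 27 of 29 fold changes were below 0, with a median of -0.067. Acot1, a cytosolic thioesterase gene, had 11.5, 16.2, 10.6, 12.4 and 10.1 CPM in sedentary knockout hearts, against 13.7, 15.9, 15.4, 16.4 and 17.8 CPM in sedentary vehicle hearts (log2 fold change -0.37, SE 0.11, adjusted p = 0.47). Acot2, its mitochondrial relative, had 63.2, 63.4, 58.5, 62.7 and 51.6 CPM in sedentary knockout hearts, against 72.3, 78.9, 75.05, 67.05 and 63.9 CPM in sedentary vehicle hearts (log2 fold change -0.25, SE 0.095, adjusted p = 0.60). Acot2 was the 1 gene whose groups did not overlap, against 0.58% of all genes in that direction. Cpt2, which releases fatty acids from carnitine inside the mitochondrion, had 180.4, 174, 167, 173 and 152 CPM in sedentary knockout hearts, against 193, 189, 205, 174 and 181 CPM in sedentary vehicle hearts (log2 fold change -0.15, SE 0.061, adjusted p = 0.65). Its groups overlapped. The red blood cell markers summed to 2351 to 3295 CPM in sedentary knockout hearts and 1452 to 2013 CPM in sedentary vehicle hearts, and their part in these values was not tested.

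Within the knockout hearts, training gave 0 calls among the 29 (limma, 0 with an unadjusted p under 0.05, as had 11.8% of all genes; edgeR on estimated reads, 0), against 0.0223% of all genes. Apart from Ppara, the smallest p belonged to Ehhadh, the bifunctional enzyme of peroxisomes, with 13.5, 10.6, 12.7, 11.8 and 12.1 CPM in trained knockout hearts, against 9.99, 9.004, 8.56, 13.04 and 10.9 CPM in sedentary knockout hearts (log2 fold change 0.23, SE 0.12, adjusted p = 0.47). Eci1, an isomerase for unsaturated fatty acids, had 206, 187, 184, 187 and 204 CPM in trained knockout hearts, against 179, 186, 177, 189.8 and 171 CPM in sedentary knockout hearts (log2 fold change 0.099, SE 0.059, adjusted p = 0.52). Both sets of groups overlapped. The training effects in knockout and vehicle mice differed, by limma and by edgeR on estimated reads, in 0 of the 29 genes, against 0% of all genes, with 1 at an unadjusted p under 0.05 (8.06% of all genes). After Ppara came Hadhb, with a difference of -0.15 on the log2 scale (SE 0.084, adjusted p = 0.66), and Acads, the short-chain dehydrogenase, with -0.12 on the log2 scale (SE 0.094, adjusted p = 0.75). Acads had 214, 184, 179.6, 176 and 229 CPM in trained and 199, 194, 183, 197 and 181 CPM in sedentary knockout hearts. In vehicle hearts it had 227, 223, 214, 208 and 196 CPM in trained and 203, 207, 201, 173 and 175 CPM in sedentary libraries.

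In the liver none of the 32 genes tested passed in any of the 5 comparisons by limma, and edgeR on estimated reads called 0 in each. The percentages of all genes called were 0% for training in vehicle mice, 0.0234% for training in knockout mice, 0% for the knockout in sedentary mice, 2.63% for the knockout in trained mice (1.55% higher and 1.08% lower) and 0.0078% for the difference between training effects. The counts with an unadjusted p under 0.05 were 1, 7, 1, 1 and 0 of the 32, against 6.9%, 11.8%, 4.81%, 21.9% and 10.2% of all genes. The widest differences were in genes that are classic readouts of the receptor in rodent liver. Cyp4a14 had 13.7, 56.3, 20.5, 19.5 and 156 CPM in trained vehicle livers, against 262, 139, 84.8, 244 and 123 CPM in sedentary vehicle livers (log2 fold change -2.14, SE 0.62, adjusted p = 0.38). It had 89.4, 33.5, 44.01, 149.8 and 39.2 CPM in trained knockout livers, against 495, 48.8, 367, 322 and 369.8 CPM in sedentary knockout livers (log2 fold change -2.06, SE 0.62, adjusted p = 0.27). The sedentary libraries were mostly the higher ones in both genotypes. The vehicle groups overlapped through trained vehicle 5, and the knockout groups through sedentary knockout 2.

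Cyp4a10, the neighbouring copy, had 98.4, 53.2, 117, 137 and 50.2 CPM in trained knockout livers, against 245, 79.04, 207, 151 and 175 CPM in sedentary knockout livers (log2 fold change -0.92, SE 0.36, adjusted p = 0.34). Vnn1, a pantetheinase gene that PPAR alpha induces in liver, had 37.5, 31.5, 33.9, 45.8 and 35.1 CPM in trained knockout livers, against 89.5, 30.1, 63.3, 62.3 and 68.4 CPM in sedentary knockout livers (log2 fold change -0.69, SE 0.24, adjusted p = 0.30). In vehicle mice Vnn1 had 16.6, 29.4, 26.7, 34.3 and 50.8 CPM in trained livers, against 43.5, 44.1, 50.1, 43.5 and 30.3 CPM in sedentary livers (log2 fold change -0.48, SE 0.24, adjusted p = 0.74). In each case the groups overlapped. The library with the highest Cyp4a14 in its group was also highest in Vnn1 and in Acot1 in 3 of 4 groups each. It was highest in Cyp4a10, Acot2 and Acot3 in 2 groups each, and in Acot4 and Crat in 1 each. This description was chosen after the values were seen. It covers only these picked genes and was not set against all genes of the liver, so it does not show that they vary together more than others. Decr1 had 114, 179, 146, 141 and 184 CPM in trained vehicle livers, against 145, 195, 195, 164 and 184 CPM in sedentary vehicle livers (log2 fold change -0.22, SE 0.12, adjusted p = 0.77). Of the 32 fold changes with training, 24 were below 0 in vehicle mice (median -0.096) and 17 in knockout mice (median -0.038), beside medians of -0.00046 and -0.0016 for all genes.

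**Figure D3:**
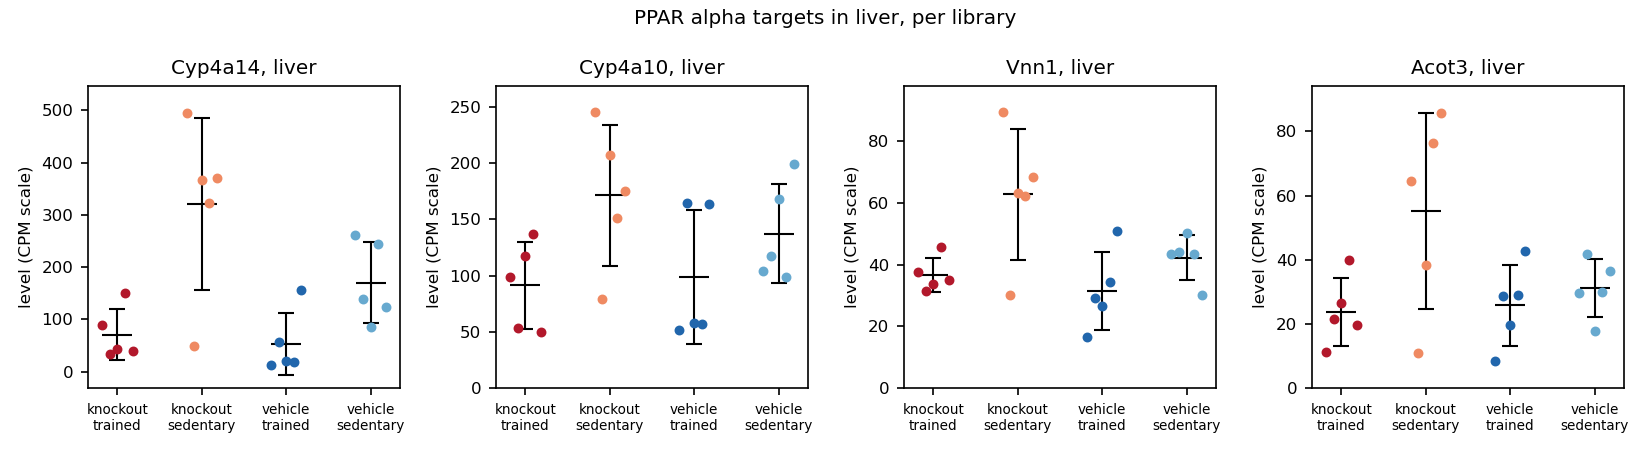
Level on the CPM scale of 4 PPAR alpha targets in each liver library (points), with group mean and SD (black). Cyp4a14 ranges from 13.7 to 495 over the 20 libraries; sedentary knockout 2, at 48.8, and trained vehicle 5, at 155.9, stand apart from their groups.

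The knockout left the liver values of these genes overlapping almost throughout. In sedentary mice Eci2, an isomerase of mitochondria and peroxisomes, had 208, 199, 201, 218 and 229 CPM in knockout livers, against 195, 155, 208, 186 and 164 CPM in vehicle livers (log2 fold change 0.22, SE 0.088, adjusted p = 1.0). Vnn1, with the values given above, overlapped too (log2 fold change 0.50, SE 0.24, adjusted p = 1.0). Plin5, which coats lipid droplets beside mitochondria, had 34.5, 32.98, 31.3, 43.2 and 39.6 CPM in sedentary knockout livers, against 43.7, 53.8, 50.3, 33.8 and 40.9 CPM in sedentary vehicle livers (log2 fold change -0.28, SE 0.15, adjusted p = 1.0). In trained mice Etfb had 278, 248, 293, 290.5 and 278 CPM in knockout livers, against 334, 309, 365, 339 and 318 CPM in vehicle livers (log2 fold change -0.26, SE 0.099, adjusted p = 0.13). It was the 1 gene of the 32 whose groups did not overlap, against 2.89% of all genes in that direction. Cpt2 had 103, 121, 115, 127 and 126 CPM in trained knockout livers, against 111, 132, 135, 131 and 146 CPM in trained vehicle livers (log2 fold change -0.14, SE 0.086, adjusted p = 0.34). Etfdh, which passes electrons from the flavoprotein to the respiratory chain, had 191, 148, 166, 178 and 150.3 CPM in trained knockout livers, against 115, 159, 129, 154 and 163 CPM in trained vehicle livers (log2 fold change 0.22, SE 0.13, adjusted p = 0.35). The groups overlapped for both. The transcript length index was -0.348 to -0.171 in trained knockout livers and -0.411 to -0.286 in trained vehicle livers. With the index as a covariate (limma) the log2 fold changes were -0.11 for Etfb (adjusted p = 0.42), -0.076 for Cpt2 (adjusted p = 0.64) and 0.33 for Etfdh (adjusted p = 0.20).

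The smallest p-values for a difference between training effects in liver belonged to Etfb, at -0.21 on the log2 scale (SE 0.14, adjusted p = 0.61), to Decr1, at 0.25 on the log2 scale (SE 0.17, adjusted p = 0.62), and to Mlycd, which breaks down malonyl-CoA, at 0.14 on the log2 scale (SE 0.10, adjusted p = 0.64). Mlycd had 102, 90.02, 94.2, 109 and 96.7 CPM in trained and 103, 99.2, 94.1, 94.9 and 92.6 CPM in sedentary knockout livers. In vehicle livers it had 91.3, 106, 86.8, 98.9 and 94.1 CPM in trained and 112, 97.2, 106, 97.8 and 105 CPM in sedentary libraries. Ppara had 77.96, 80.3, 96.6, 78.9 and 72.6 CPM in trained knockout livers, against 96.1, 61.2, 56.6, 69.6 and 82.5 CPM in sedentary knockout livers. It had 68.3, 71.9, 78.7, 83.9 and 91.7 CPM in trained vehicle livers, against 64.6, 69.1, 80.7, 67.7 and 79.7 CPM in sedentary vehicle livers. All 4 groups overlapped, with the training effects of Ppara at 0.17 on the log2 scale (SE 0.12, adjusted p = 0.59) in knockout and 0.12 on the log2 scale (SE 0.12, adjusted p = 0.89) in vehicle mice. Of the other lists, 2 genes were called in liver, both in trained mice and both higher with the knockout (1.55% of all genes were). In the same comparison 7 of 7 macrophage markers were above 0 in log2 fold change, 2 of them called, and they summed to 156.9 to 438.7 CPM in trained knockout and 73.6 to 149.5 CPM in trained vehicle livers. Their part in these values and in those of Etfb was not tested. Crot, which prepares shortened fatty acids for export from peroxisomes, is 1 of 32 further enzymes and had 247 ± 17.2 CPM in knockout and 175 ± 24.4 CPM in vehicle livers (SD, n = 5 each; log2 fold change 0.50, SE 0.13, adjusted p = 0.038). The clock repressor Nr1d2 is 1 of 25 regulators (139 ± 30.1 and 83.03 ± 11.05 CPM; log2 fold change 0.72, SE 0.13, adjusted p = 0.023). The remaining lists (32 further targets, 13 ketone body and malonyl-CoA genes and 20 of uptake and lipolysis) gave 0 calls in liver, with 1 to 10, 0 to 3 and 1 to 7 genes at an unadjusted p under 0.05. Over the 5 comparisons 4.81% to 21.9% of all genes in liver had such a p.

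In inguinal white fat the values of nearly all of these genes were lower after training in vehicle mice, with 0 of 32 called by edgeR, against 0% of all genes. Of the 32 fold changes 31 were below 0, with a median of -0.39 on the log2 scale, beside 0.026 for all genes, while an unadjusted p under 0.05 was found for 22 (and for 18% of all genes). For 25 of the 32 every trained vehicle library was below every sedentary vehicle library, against 12.8% of all genes. Without sedentary vehicle 1 the count was again 25, against 17.3% of all genes. DESeq2 called 15 of the genes lower and 0 higher, against 5.57% of all genes it tested, and edgeR fitted to these 2 groups alone called 7 lower, against 1.45%. The 25 included all 3 isomerase and reductase genes for unsaturated fatty acids (Decr1, Eci1, Eci2) and all 3 flavoprotein genes (Etfa, Etfb, Etfdh). They also included the thiolases Acaa1a, Acaa1b and Acaa2, the carnitine carrier Slc25a20 and the carnitine enzymes Cpt2 and Crat. The 7 genes whose groups overlapped were Cpt1a, Cpt1b, Acadl, Hadha, Acot1, Ppara and Ehhadh. Acot4, a peroxisomal thioesterase gene, had 15.5, 12.4 and 13.2 CPM in trained vehicle fat, against 23.6, 23.9 and 22.4 CPM in sedentary vehicle fat (log2 fold change -0.76, SE 0.13, adjusted p = 0.11). Eci1 had 74.6, 77.2 and 86.9 CPM in trained vehicle fat, against 126, 119 and 105 CPM in sedentary vehicle fat (log2 fold change -0.54, SE 0.12, adjusted p = 0.13). Acadvl, the very-long-chain dehydrogenase that takes the first step of the mitochondrial cycle, had 132, 136 and 152 CPM in trained vehicle fat, against 197, 181 and 177 CPM in sedentary vehicle fat (log2 fold change -0.39, SE 0.088, adjusted p = 0.13). For all 3 genes the groups did not overlap.

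Markers of cell types moved with this comparison. The summed level of 7 adipocyte markers was 17550 to 20738 CPM in trained vehicle fat and 25255 to 25420 CPM in sedentary vehicle fat. That of 7 macrophage markers was 3043 to 3666 CPM in trained vehicle fat and 1594 to 2515 CPM in sedentary vehicle fat. Both pairs of ranges were apart. Trained vehicle 1 also held more lymphocyte markers than the other 11 fat libraries, at 134.5 CPM. Brown adipocyte markers were near 0 in both groups, with 3.96 to 6.21 CPM for 7 listed markers in trained and 5.81 to 11.5 CPM in sedentary vehicle fat, and Ucp1 was at 0 in 7 of the 12 libraries. The part of adipocytes and macrophages in the lower values was not tested.

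In knockout mice the fold changes with training were spread over both signs. Of the 32 genes 0 were called (edgeR, 0% of all genes), DESeq2 called 1 lower (3.98% of all genes), and the unadjusted p was under 0.05 for 2 (16.3% of all genes). There were 21 fold changes above 0 and 11 below, with a median of 0.043. Vnn1 had 5.58, 6.10 and 3.79 CPM in trained knockout fat, against 9.42, 8.54 and 9.72 CPM in sedentary knockout fat (log2 fold change -0.84, SE 0.23, adjusted p = 0.14). Cpt1a had 154, 136 and 133 CPM in trained knockout fat, against 166, 166 and 172 CPM in sedentary knockout fat (log2 fold change -0.25, SE 0.087, adjusted p = 0.20). Vnn1 and Cpt1a were the 2 genes of the 32 with groups apart, both lower with training, against 10% of all genes. Acot3, a further peroxisomal thioesterase gene and very low in fat, had 0.473, 1.24 and 0.621 CPM in trained knockout fat, against 0.391, 0.544 and 0.226 CPM in sedentary knockout fat (log2 fold change 0.98, SE 0.46, adjusted p = 0.32). Its groups overlapped. Adipocyte markers summed to 18981 to 25990 CPM in trained and 19199 to 20365 CPM in sedentary knockout fat.

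The difference between the training effects was tested directly. It passed for 0 of the 32 genes (edgeR, 0% of all genes), while 15 had an unadjusted p under 0.05 (18.4% of all genes did), 30 differences were above 0 and the median was 0.41, beside -0.025 for all genes. The smallest p-values were those of Acot4, at 0.85 on the log2 scale (SE 0.19, adjusted p = 0.12), Mlycd, at 0.68 on the log2 scale (SE 0.17, adjusted p = 0.12), and Acadvl, at 0.45 on the log2 scale (SE 0.12, adjusted p = 0.13). DESeq2 called 8 of the 32, all with a higher training effect in knockout mice, against 5.04% of all genes. Mlycd had 48.2, 63.7 and 60.98 CPM in trained and 50.8, 42.3 and 54.1 CPM in sedentary knockout fat. In vehicle fat it had 44.1, 49.7 and 48.5 CPM in trained and 68.2, 59.4 and 68.4 CPM in sedentary libraries. Its trained and sedentary libraries were apart in vehicle fat and overlapped in knockout fat. Without trained knockout 1, edgeR called 5 of the 32 differences. The share of all genes called in that fit is not given here, so the 5 show only that the count depends on 1 library.

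**Figure D4:**
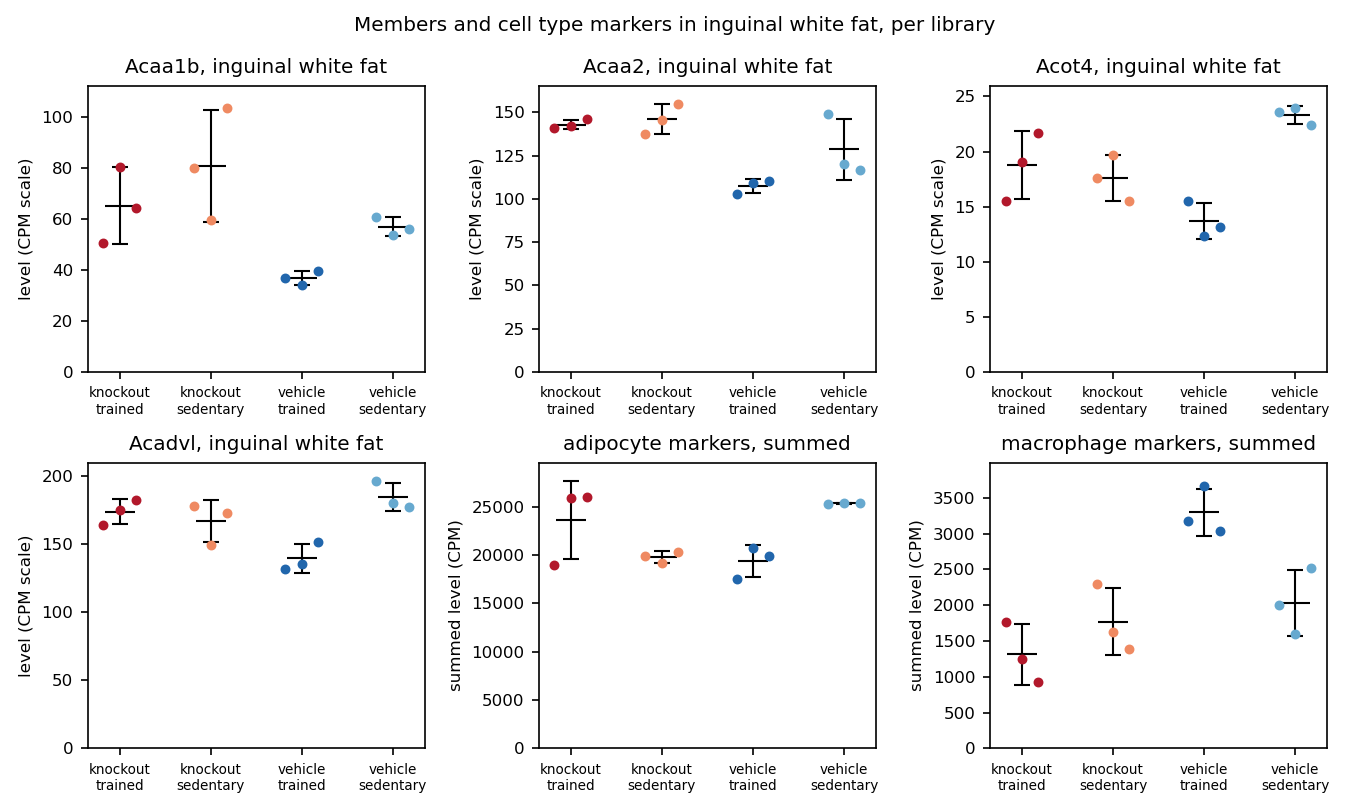
Level in each inguinal white fat library (points), with group mean and SD (black), for Acaa1b, Acaa2, Acot4 and Acadvl on the CPM scale and for the summed adipocyte and macrophage markers. The trained vehicle libraries are the lowest group for the 4 genes, and their macrophage markers, 3043 to 3666 CPM, are the highest of all groups.

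Among trained mice, the knockout went with higher values of these genes in fat, and 2 of 32 were called higher and 0 lower (edgeR), against 0.842% and 3.59% of all genes and 4.43% in either direction. Acaa2, the mitochondrial thiolase, had 141, 142 and 146 CPM in trained knockout fat, against 103, 109 and 110.5 CPM in trained vehicle fat. The groups did not overlap, with means of 143 ± 2.72 and 107 ± 4.23 CPM (SD, n = 3 each; log2 fold change 0.40, SE 0.090, adjusted p = 0.042). Acaa1b, the peroxisomal thiolase, had 50.5, 80.5 and 64.4 CPM in trained knockout fat, against 36.6, 34.1 and 39.7 CPM in trained vehicle fat. Its groups were apart too, with means of 65.2 ± 14.99 and 36.8 ± 2.77 CPM (SD, n = 3 each; log2 fold change 0.81, SE 0.20, adjusted p = 0.048). In all, 15 of the 32 were higher in every trained knockout library, against 14.2% of all genes, and the median log2 fold change was 0.29, beside -0.0028. They included the flavoprotein genes Etfa, Etfb and Etfdh, the 3 thiolases and the dehydrogenases Acadvl, Acadm and Acads. An unadjusted p under 0.05 was found for 19 of the 32 (edgeR), and for 25.4% of all genes. Without trained knockout 2, whose hepatocyte markers summed to 1251 CPM, 16 of 32 did not overlap, against 19.5% of all genes. Both calls were lost without that library, without trained knockout 3 and without any 1 of the 3 trained vehicle libraries (edgeR, adjusted p = 0.10 to 0.18, log2 fold change 0.37 to 0.45 for Acaa2 and 0.67 to 0.86 for Acaa1b). Without trained knockout 1, 5 of the 32 were called, and the share of all genes called in that fit is not given here. With the 2 libraries over 10 times the median in hepatocyte markers left out of the fit, 1 of all genes was called. DESeq2 called 8 of the 32 higher and 0 lower, against 12.9% of all genes called in either direction. The trained vehicle group is also the one with the highest macrophage markers (3043 to 3666 CPM, against 922.3 to 1771 CPM in trained knockout fat), whose part was not tested.

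The comparisons of trained knockout with trained vehicle fat and of trained with sedentary vehicle fat share the trained vehicle libraries, so their opposite signs are not separate results. Of the lists, 32 further enzymes gave 0 higher and 2 lower with the knockout in trained mice, against 0.842% and 3.59% of all genes. They were the peroxisomal oxidase gene Acox3 (60.1 ± 1.68 CPM in trained knockout and 89.3 ± 6.21 CPM in trained vehicle fat, SD, n = 3 each; log2 fold change -0.58, SE 0.098, adjusted p = 0.036) and the acyl-CoA synthetase gene Acsl5 (log2 fold change -0.27, SE 0.064, adjusted p = 0.045), both opposite in sign to the thiolases. Of 29 further targets 1 was higher and 1 lower, Plin4 (5192 ± 889 and 3139 ± 429 CPM; log2 fold change 0.71, SE 0.17, adjusted p = 0.047) and the transferrin receptor gene Tfrc (log2 fold change -1.69, SE 0.38, adjusted p = 0.040). Plin4 was also the 1 called of 22 genes of uptake and lipolysis. Of 12 ketone body and malonyl-CoA genes Slc16a6, a carrier of ketone bodies, was lower (log2 fold change -0.52, SE 0.13, adjusted p = 0.049). Without the libraries over 10 times the median in hepatocyte markers, 1 of all genes was called. At most 1 of these list calls can therefore remain in that fit. None of 25 regulators was called (edgeR), with 9 at an unadjusted p under 0.05 (25.4% of all genes did).

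In sedentary mice the knockout gave 0 calls among the 32 in fat (edgeR), against 0.557% of all genes, with 8 at an unadjusted p under 0.05 (17.9% of all genes) and a median of -0.11. DESeq2 called 1 lower, against 6.03% of all genes. Mlycd, with the values given above, was lower in every sedentary knockout library than in every sedentary vehicle library (log2 fold change -0.42, SE 0.12, adjusted p = 0.11). Acot4 had 17.6, 19.7 and 15.5 CPM in sedentary knockout fat, likewise below every sedentary vehicle library (log2 fold change -0.41, SE 0.13, adjusted p = 0.15). Acot2 had 32.4, 44.6 and 33.7 CPM in sedentary knockout fat, against 48.4, 45.4 and 47.9 CPM in sedentary vehicle fat (log2 fold change -0.36, SE 0.13, adjusted p = 0.19). Groups were apart for 8 genes lower with the knockout and 1 higher, Cpt1a, against 9.24% and 11.8% of all genes. The adipocyte markers summed to 19199 to 20365 CPM in sedentary knockout fat and 25255 to 25420 CPM in sedentary vehicle fat, and their part was not tested. Of the lists, 1 gene was called, Acsm3, a medium-chain acyl-CoA synthetase gene and 1 of 12 on the list of ketone body and malonyl-CoA genes, with 10.9 ± 6.09 CPM in sedentary knockout fat and 69.1 ± 24.05 CPM in sedentary vehicle fat (SD, n = 3 each; log2 fold change -2.66, SE 0.49, adjusted p = 0.047). Ppara had 17.9, 35.9 and 26.98 CPM in trained knockout fat, against 25.03, 18.2 and 23.7 CPM in sedentary knockout fat. It had 12.6, 19.4 and 24.98 CPM in trained vehicle fat, against 22.9, 25.8 and 22.8 CPM in sedentary vehicle fat. The trained groups spread widely, and the groups overlapped within each genotype, with training effects of 0.27 on the log2 scale (SE 0.26, adjusted p = 0.62) in knockout and -0.31 on the log2 scale (SE 0.26, adjusted p = 0.57) in vehicle mice.

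In lung, a tissue with lower levels of these genes, training in knockout mice went with higher values of most of them, with 0 of 31 called by edgeR and by DESeq2 and 0% of all genes by edgeR. Of the 31 fold changes 27 were above 0, with a median of 0.30 on the log2 scale, beside 0.031 for all genes, while an unadjusted p under 0.05 was found for 16 (and for 16.6% of all genes). For 15 of 31 every trained knockout library was above every sedentary knockout library, against 11.8% of all genes, and for 1, Vnn1, below, against 11.6%. Without trained knockout 3 the first count was 16, against 15.1% of all genes. Acadm had 100.5, 90.3 and 107 CPM in trained knockout lung, against 69.8, 61.4 and 81.6 CPM in sedentary knockout lung (log2 fold change 0.48, SE 0.13, adjusted p = 0.24). Plin5 had 9.36, 10.1 and 12.8 CPM in trained knockout lung, against 5.30, 6.03 and 7.22 CPM in sedentary knockout lung (log2 fold change 0.80, SE 0.23, adjusted p = 0.24). Etfa, the partner subunit of Etfb, had 70.5, 73.3 and 82.9 CPM in trained knockout lung, against 59.3, 52.3 and 60.5 CPM in sedentary knockout lung (log2 fold change 0.40, SE 0.12, adjusted p = 0.24). The groups were apart for all 3. The 15 also included Etfb and Etfdh, Cpt1b and Cpt2, Acadvl, and the isomerase and reductase genes Eci1 and Decr1.

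The lung libraries held heart muscle transcripts in varying amounts. The 8 cardiomyocyte markers, none of them at 0 in any library, summed to 1227, 1734 and 1309 CPM in trained knockout lung and 785.4, 677 and 955.2 CPM in sedentary knockout lung. They summed to 804.5, 2216 and 765 CPM in trained vehicle lung and 380.9, 323.7 and 858.2 CPM in sedentary vehicle lung, while in heart itself they summed to 31450 to 38522 CPM. Brown adipocyte markers other than the 1 that lung itself expresses summed to 16.6 to 75.8 CPM in trained knockout lung and 7.09 to 12.1 CPM in sedentary knockout lung. White adipocyte markers summed to 193.3 to 291.8 CPM in trained knockout lung and 72.5 to 150.9 CPM in sedentary knockout lung, with 7 of 7 above 0 in log2 fold change and 0 called. The part of these 3 sets of markers in the higher values was not tested.

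Cpt1b, the muscle form of the mitochondrial gate, had 7.58, 15.5 and 8.08 CPM in trained vehicle lung, against 4.90, 3.99 and 9.69 CPM in sedentary vehicle lung (log2 fold change 0.74, SE 0.32, adjusted p = 0.36). It was highest in trained vehicle 2, the library with the most cardiomyocyte markers. Plin5 had 7.06, 9.44 and 7.40 CPM in trained vehicle lung, against 4.09, 5.52 and 7.57 CPM in sedentary vehicle lung (log2 fold change 0.47, SE 0.23, adjusted p = 0.41). Crat, which moves acetyl groups between coenzyme A and carnitine, had 60.4, 70.5 and 67.7 CPM in trained vehicle lung, against 52.2, 56.2 and 60.3 CPM in sedentary vehicle lung (log2 fold change 0.23, SE 0.12, adjusted p = 0.44). Groups were apart for Crat and Hadha, both higher with training, and for 0 genes lower, against 10.5% and 10.8% of all genes. In this comparison 0 of the 31 were called (edgeR and DESeq2), 1 had an unadjusted p under 0.05 (12.8% of all genes did) and 0.204% of all genes were called.

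The knockout gave 0 calls among the 31 in trained and in sedentary lung (edgeR, 0% of all genes in both; DESeq2, 0), with 5 and 0 genes at an unadjusted p under 0.05 (16.2% and 13.6% of all genes). In trained mice Acaa1a had 145, 138 and 187 CPM in knockout lung, against 133, 109 and 123 CPM in vehicle lung (log2 fold change 0.37, SE 0.13, adjusted p = 0.28). Hadh, a dehydrogenase of the mitochondrial cycle, had 121, 116 and 152 CPM in trained knockout lung, against 99.2, 112 and 103 CPM in trained vehicle lung (log2 fold change 0.30, SE 0.11, adjusted p = 0.28). Acaa1a and Hadh were the 2 genes with groups apart and higher, against 12% of all genes. Acaa2 had 125, 126 and 178 CPM in trained knockout lung, against 108, 128 and 109 CPM in trained vehicle lung, where the groups overlapped (log2 fold change 0.31, SE 0.13, adjusted p = 0.29). Trained knockout 3 was highest for Acaa1a, Hadh and Acaa2. Its brown adipocyte markers not expressed by lung itself summed to 75.8 CPM, against 9.57 to 23.7 CPM in trained vehicle lung. Their part in these values was not tested. In sedentary mice Ehhadh had 12.9, 12.02 and 12.9 CPM in knockout lung, against 14.9, 12.4 and 17.01 CPM in vehicle lung (log2 fold change -0.23, SE 0.13, adjusted p = 0.43). Decr1 had 40.3, 37.97 and 41.7 CPM in sedentary knockout lung, against 42.7, 41.4 and 50.5 CPM in sedentary vehicle lung (log2 fold change -0.17, SE 0.11, adjusted p = 0.49). Both overlapped, and of the 31 genes Etfa alone was apart (59.3, 52.3 and 60.5 CPM in sedentary knockout and 62.9, 60.7 and 70.97 CPM in sedentary vehicle lung; log2 fold change -0.18, SE 0.12, adjusted p = 0.51), against 10.3% of all genes in that direction.

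The training effects in lung differed between knockout and vehicle mice in 0 of the 31 genes (edgeR, 0% of all genes; DESeq2, 0), with 1 at an unadjusted p under 0.05 (15.2% of all genes). The smallest p-values were those of Etfa, at 0.45 on the log2 scale (SE 0.17, adjusted p = 0.26), Eci1, at 0.47 on the log2 scale (SE 0.22, adjusted p = 0.33), and Cpt1a, at -0.34 on the log2 scale (SE 0.17, adjusted p = 0.37). Etfa had 58.02, 73.2 and 56.4 CPM in trained vehicle lung. Eci1 had 31.1, 34.8 and 50.1 CPM in trained and 28.1, 26.2 and 27.5 CPM in sedentary knockout lung, and 31.7, 32.8 and 30.2 CPM in trained and 26.3, 32.2 and 33.2 CPM in sedentary vehicle lung. Trained knockout 3, the library with brown adipocyte markers, was the highest of the 12 for Eci1, and the part of those markers was not tested. Cpt1a had 116, 96.9 and 93.1 CPM in trained and 119.9, 149 and 115 CPM in sedentary knockout lung, and 122, 128 and 114 CPM in trained and 133, 118 and 110.0 CPM in sedentary vehicle lung. Ppara had 14.3, 15.2 and 12.5 CPM in trained knockout lung, against 13.03, 12.4 and 14.1 CPM in sedentary knockout lung. It had 11.8, 17.4 and 15.2 CPM in trained vehicle lung, against 16.7, 13.5 and 16.3 CPM in sedentary vehicle lung, and the groups overlapped within each genotype (training effects of 0.084 on the log2 scale (SE 0.16, adjusted p = 0.79) in knockout and -0.067 on the log2 scale (SE 0.15, adjusted p = 0.89) in vehicle mice). The 5 further lists gave 0 calls in lung in each of the 5 comparisons (edgeR), with 0 to 5 genes of a list at an unadjusted p under 0.05. Over these comparisons 12.8% to 16.6% of all genes in lung had such a p.

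**Figure D5:**
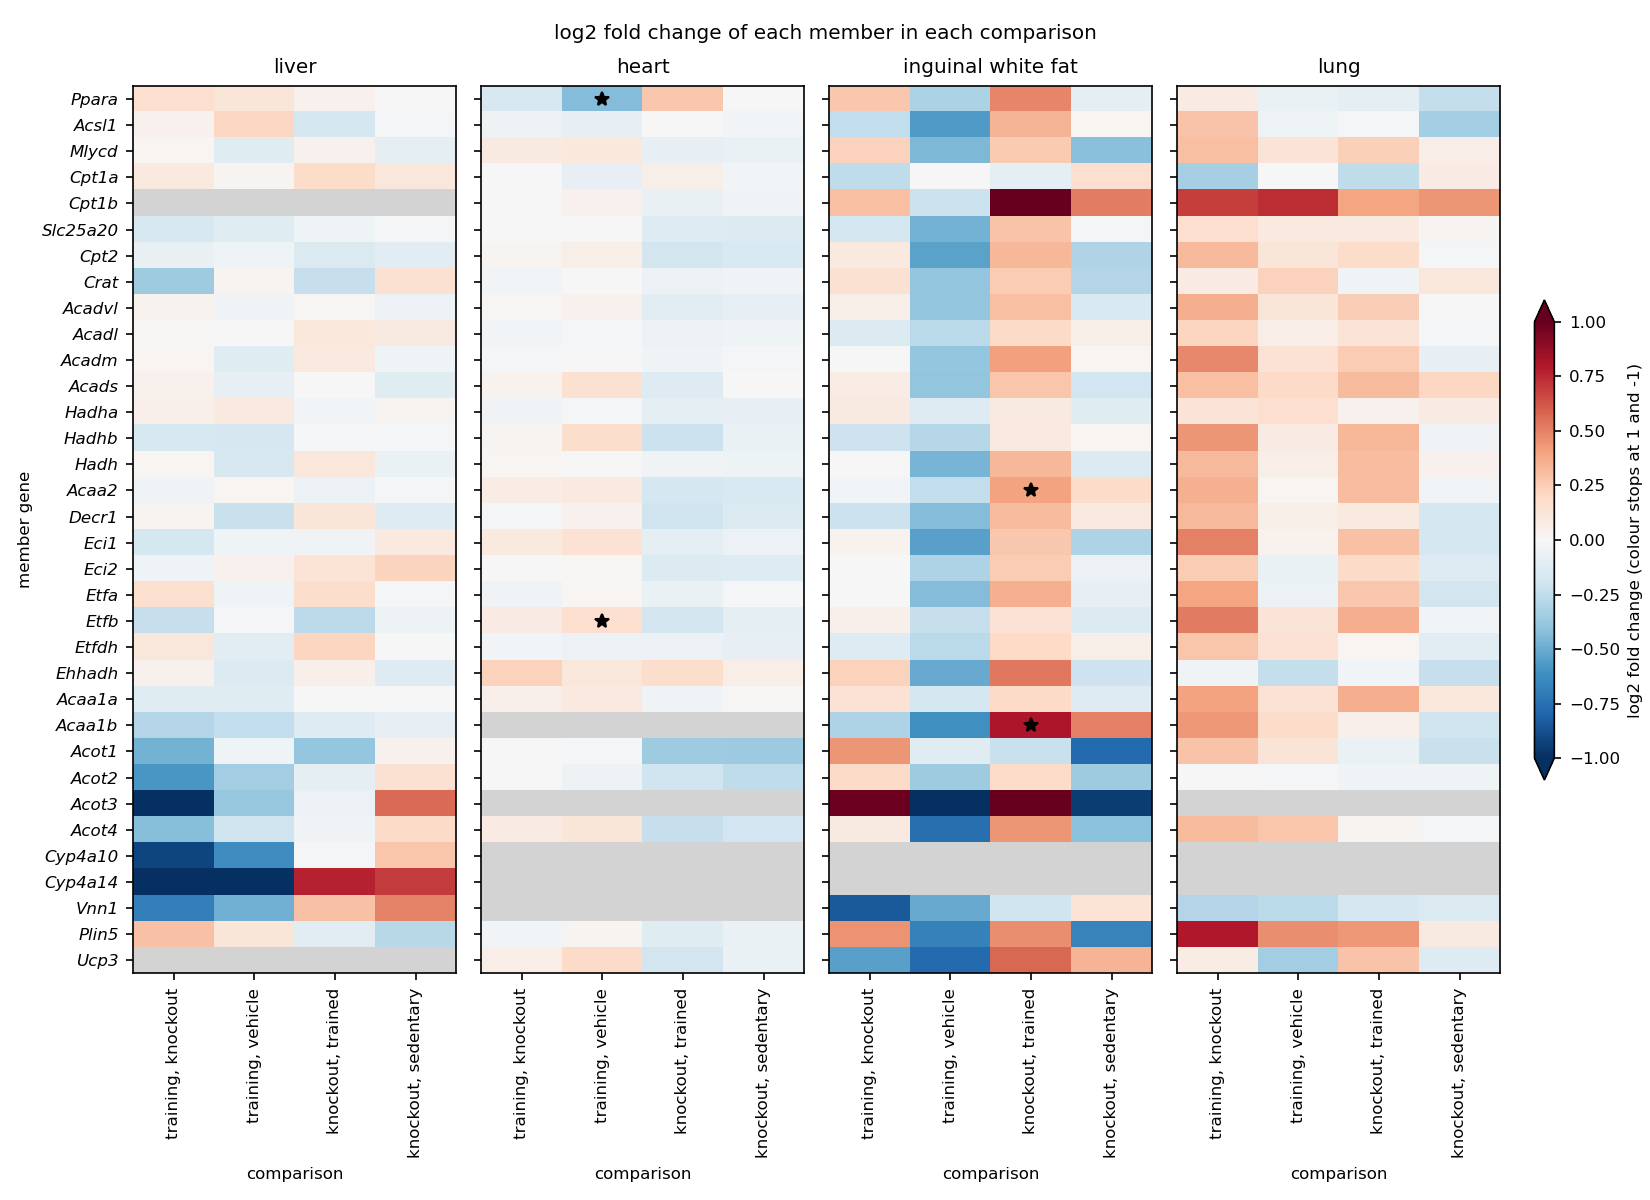
log2 fold change of each gene (rows) in the 4 comparisons of 2 groups (columns) of each tissue; red is higher and blue lower in the trained or knockout group, colour stops at 1 and -1, grey marks genes not tested, and stars mark the 4 genes called at an adjusted p under 0.05. The column of training in vehicle fat is blue for 31 of 32 genes and that of training in knockout lung red for 27 of 31.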

How the data were processed

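RNA was sequenced from liver, heart, inguinal white fat and lung, and groups were taken from the labels. Alignment used STAR 2.7.8a and Partek, and the builds mm10 and GRCm39 are named without their roles, per the submitters' processing notes. The liver and heart tables hold scaled signal, named CPM as deposited. They have about 1 row per symbol, with 20929 rows for 20895 symbols in liver and 21392 for 21359 in heart. Their sums, 14840727 to 18537114 per library, are too high for that unit, so 1 factor per tissue (16.1 in liver, 17.5 in heart) was divided out to give a CPM scale. Depth there was estimated from the value of 1 read, since 80.9% to 83.7% of values between 0.05 and 100 were whole multiples of it within 0.02. The fat and lung tables hold expected counts per transcript as the authors deposited them, which were summed per symbol and rounded to whole counts.

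Rows were summed per symbol. Liver and heart were fitted with limma 3.58.1 (trend) on log2(value + 1) for genes with a mean of at least 1, so fold changes of low genes are understated. Fat and lung were fitted with edgeR 4.0.16 (quasi-likelihood, TMM, filterByExpr), in R 4.3.3. All 4 groups of a tissue shared a fit, p-values were adjusted over all genes by Benjamini-Hochberg, and genes under 0.05 were called. The text names Ppara, members called and the 3 smallest p-values of each comparison, and called genes of the lists, except for a result that is not reported here. Members and lists were chosen with earlier results of these data known. Fits were tested on simulated data. Alternatives were DESeq2 1.42.0, other scaling, pseudocount 0.1, no filter, a transcript length index, a replicate block, 2 groups alone, and leaving out libraries. Replicate numbers were not taken to pair samples: in no comparison did the deviations of every same-numbered pair correlate above 0.1, though in lung, for the knockout in sedentary mice, all 3 correlations were positive (0.0939 to 0.312). No 2 libraries were identical.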

Additional observations from a re-analysis of the deposited data

Results flagged for a closer look

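Among groups of 5 libraries, 84 sets of values of named genes were examined for a library far from the other 4, and 1 had one, where chance gives about 1 in 20. Eci2 in trained vehicle liver had 155.5 CPM in replicate 1 and 191.8 to 201.2 CPM in the other 4, so the gap was 0.795 of the range.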

How the results depend on the processing

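The 58 results for named genes were recomputed 995 times under the alternatives. Of these, 948 kept direction and side of the threshold, 31 lost the call, 14 gained it and 2 reversed, both with the transcript length index as covariate in heart: Etfb with training in vehicle mice (-0.080) and Eci1 with training in knockout mice (-0.039). Liver and lung gave 0 called members under every alternative run. In heart, training in vehicle mice called 2 members, against 1 with edgeR on estimated reads, 1 with no filter, 1 in a fit of the 2 groups alone, 1 without libraries over 10 times and 1 without those over 5 times the median in another tissue's markers, and 0 with the length index. In fat, edgeR called 0 for training in vehicle mice, while DESeq2 called 15 members and a fit of the 2 groups alone called 7. DESeq2 called 1 for training in knockout mice, 1 for the knockout in sedentary mice and 8 for the difference between training effects, where edgeR called 0. The knockout in trained fat gave 2, against 8 with DESeq2, 1 with no filter and 0 without libraries over 10 times or over 5 times the median in another tissue's markers. With the replicate number as a block, that count was 0 (adjusted p = 0.058 for Acaa2 and 0.059 for Acaa1b), and training in vehicle hearts gave 3; the block changed no other count. Leaving out 1 library at a time gave 1 to 3 in heart for training in vehicle mice, 0 to 2 for the knockout in trained heart, 0 to 5 for the knockout in trained fat, 0 to 5 for the difference in fat and 0 to 0 in all other comparisons. Shares of all genes called in the fits that leave out 1 library are not given here. Except for the length index, Ppara in heart kept its call under every alternative run (adjusted p = 0.0026 to 0.024). The causes of these shifts were not tested. The rules for which markers count as another tissue's, and for counts without those libraries, were added after seeing the data. No lung library was over 10 times the median, and the difference between training effects has no fit of 2 groups alone.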
